A study of Mus musculus with 48 samples.

Results

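The subject here is 8 first divisions of single haematopoietic stem cells (HSCs) from young mice, named 3y1, 3y2, 3y3, 3y5, 3y6, 3y7, 5y5 and 5y6, in which the pair of daughters differed widely in the number of open chromatin regions called in them. In each division the daughter with more regions at -log10(q) above 2, that is at q under 0.01, is called the richer daughter below, and the other its sister. The study took the richer one for the progenitor. The divisions and the order within each pair were therefore chosen by the region numbers themselves, so each contrast of richer daughter and sister is given as a description with no test. They hold 16 of the 48 cells of the series, and 8 of its 14 young divisions. The richer daughter carried the letter A in 6 divisions and B in 2. Of the 8 divisions, 6 belong to library set 3 and 2 to library set 5, where the set is the leading digit of the cell's name. The sources do not say what this digit stands for, and library set is only a label for it here.

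The study asks whether the daughters of an HSC inherit the same epigenetic state and how age changes this. Donors were mice of 10 to 12 weeks (young) or 20 to 26 months (aged), of strain B6.SJL by the records and C57BL/6 by the methods. Single sorted LSK CD34- Flk2- cells grew in IMDM with 10% FBS and cytokines that included SCF and G-CSF (50 ng/mL by the records, 100 ng/mL by the methods) at 3% O2, and daughters were separated after 40 to 44 h. No treatment was given to either age group. Because the sources do not name the mouse behind each division, each spread below is taken over divisions and not over animals.

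ATAC-seq uses the transposase Tn5, which inserts sequencing adapters where DNA is not packed by nucleosomes, so insertions gather at active promoters and enhancers. A single cell has very few copies of each locus, and most open sites of one cell therefore receive few insertions or none. In HSCs the small GTPase Cdc42 and acetylated histone H4K16 can lie on one side of the cell, and Wnt5a can disturb this polarity, which is held to bear on what each daughter inherits.

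Each cell has its own list of regions called by MACS2, and the height of a region is its pileup, the number of overlapping insertions, each widened to about 150 bases as region lengths show. The 8 richer daughters had a lowest, median and highest number of listed regions of 80158, 194487 and 229127, and the 8 sisters had 20190, 82569 and 101180. Depth can be followed through the summed pileup of a list, which ran from 121010 through 304063 to 342726 in the richer daughters and from 31077 through 121215 to 146632 in the sisters. Within a division the richer daughter had 1.95 to 3.92 times the summed pileup of its sister, with a median of 2.75. The part of depth in the differences below was not tested apart from the matched values given with them. These are called regions and not reads, so counts of reads are not used here.

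The lists share positions across divisions, and this bears on each result below. Between 87.9% and 95.1% of the regions listed in each of the 16 daughters had the same start and the same end, to the base, as a region in a cell of another division. Of the sister's listed regions, 29.5% to 59.6% recurred in this way in its own richer daughter, and 11.7% to 58.9% recurred in the richer daughter of another of the 8 divisions. In 5 divisions some other division's richer daughter held more of the sister's regions than its own did. When the sister's regions were moved by 37 or 41 bases, at most 0.00991% of them still matched. Shares also differed by the pair numbers of set 3, to an extent that varied, as the plot of shared boundaries shows. The richer daughter of 3y1 held 36.8% to 38.4% of the regions of the sisters of 3y1, 3y2 and 3y3 and 12.5% to 16.1% of those of 3y5, 3y6 and 3y7, and the richer daughter of 3y5 held 34.3% to 37.1% of the latter and 11.7% to 18.3% of the former. For the richer daughter of 3y2 the ranges overlapped, with 45.5% to 57.8% of the former and 36.4% to 46.3% of the latter, as they did for that of 3y7, with 35.8% to 47.0% and 45.4% to 57.6%. Among regions at q under 0.05, 93.0% to 95.8% recurred in the richer daughters and 61.5% to 96.1% in the sisters. The divisions are thus not independent of each other in their positions. Gene ratios, shares near start sites, the count of genes found in the richer daughter alone and age differences are also given without recurring regions. Named genes, gene lists, genes shared by sisters, differences gene by gene, motifs and base composition are given only with them. Whether regions with the same boundaries in different divisions rest on separate insertions, and why they recur, was not tested, and this bears on each shared position and open gene below.

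**Figure D1:**
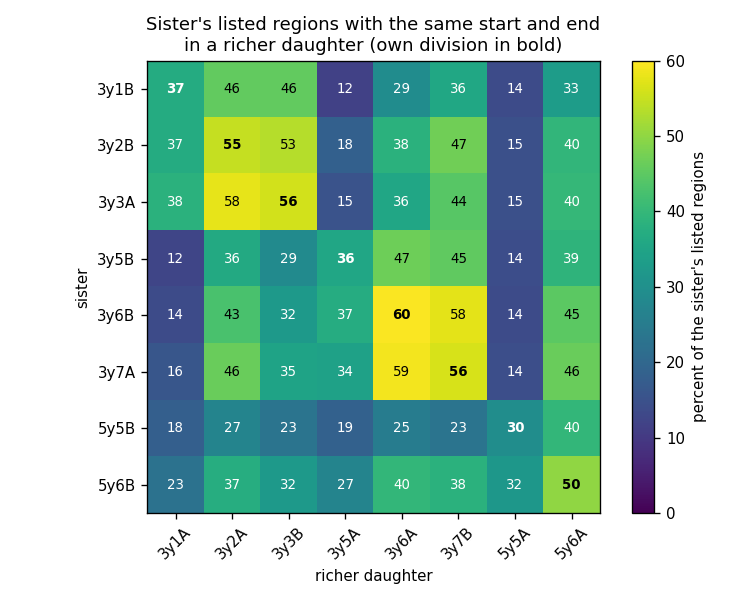
Each square gives the percent of a sister's listed regions (vertical axis) that had the same start and end in a richer daughter (horizontal axis), with the division's own pair in bold. Own pairs ran from 29.5% to 59.6% and other pairs from 11.7% to 58.9%, and columns of short richer lists such as 5y5A are lower.

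The members of the 8 were set by their region numbers. At q under 0.01 the richer daughters had 1044 to 7330 regions with a median of 6257, and the sisters had 9 to 1215 with a median of 666. The ratio within a division was lowest in 3y3, at 5.57, and next in 3y2, at 6.59. Outside the choice, the divisions with at least 3828 regions in each daughter were 3y4 at 1.33, 3y8 at 1.26 and 4y1 at 1.21. The remaining young divisions, of library set 4, had few regions at this threshold, with 251 and 3 in 4y3 (a ratio of 83.7), 4 and 2 in 4y2 (2.00), and 118 and 105 in 4y5 (1.12). By its ratio alone 4y3 would have stood among the 8, and 4y2 would have been nearest below them.

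At q under 0.05 the sisters fell into 3 groups. In 3y2, 3y3 and 3y7 the sister kept 34563, 34298 and 21950 regions. In 3y6 and 5y6 it kept 2386 and 2423. In 3y1, 3y5 and 5y5 it kept 129, 74 and 104. All 8 richer daughters had 21193 to 82399. The groups followed the lowest pileup that passed the threshold. In every richer daughter, and in the sisters of 3y2, 3y3 and 3y7, regions of pileup 2 passed. In the sisters of 3y6 and 5y6 the lowest passing pileup was 3, and in those of 3y1, 3y5 and 5y5 it was 4. Regions of pileup 2 made up 74.2% to 87.4% of the richer daughters' regions at this threshold. The ratio of richer daughter to sister depended on the measure. It ranged from 1.89 to 3.97 for listed regions and from 3.18 to 11.2 for regions of pileup 3 or more. For regions at q under 0.05 it ranged from 1.60 to 434. The cause of this dependence was not tested.

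**Figure D2:**
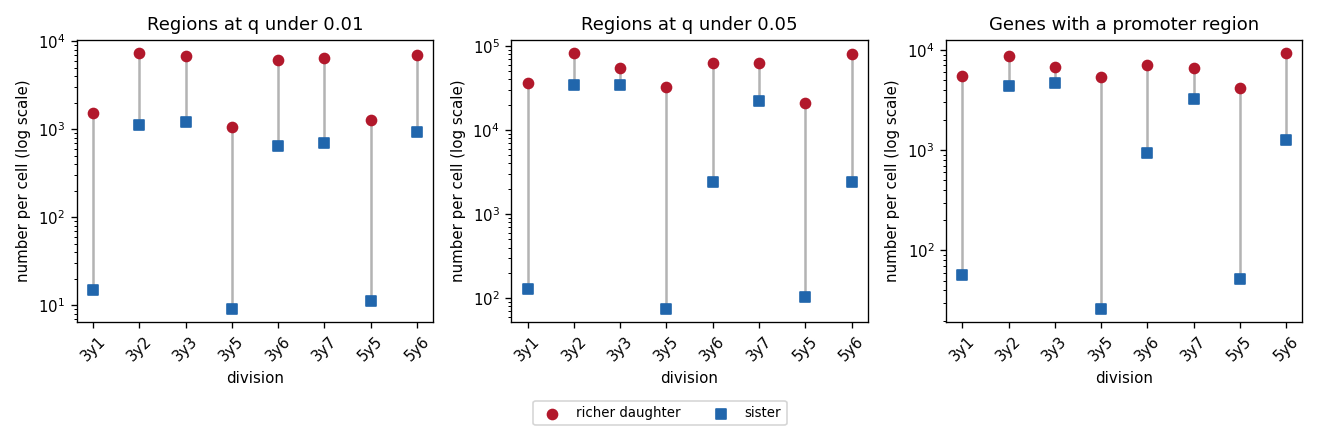
Points give, per cell and on log axes, the regions at q under 0.01 (left), the regions at q under 0.05 (middle) and the genes with a region within 1 kb of a start site (right), for the richer daughter (circles) and its sister (squares) of each division. Sisters in 3y1, 3y5 and 5y5 lie lowest, at 129, 74 and 104 regions at q under 0.05.

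Promoters were counted gene by gene. A gene counted as open in a daughter when a region at q under 0.05 had a base within 1 kb of any of its transcription start sites (TSSs), and 26182 RefSeq genes with a TSS were looked at. The richer daughters had 4141 to 9324 open genes with a median of 6696, and the sisters had 26 to 4639 with a median of 1096. The log2 ratio of open genes, richer daughter over sister, was 3.62 ± 2.85 (SD, n = 8 divisions). It was 0.54 in 3y3, 1.00 in 3y2 and 1.04 in 3y7, 2.89 in 5y6 and 2.94 in 3y6, and 6.32 in 5y5, 6.59 in 3y1 and 7.68 in 3y5. The 3 groups of sisters thus did not overlap in this value. Counting every listed region, with no threshold on q, gave a mean of 0.90. Counting regions found in no other division gave 2.85, and counting the same minimum pileup in both daughters, the higher of their lowest passing values, gave 2.50.

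Most genes open in a sister were also open in its richer daughter. The share was highest in 5y6, where 1205 of 1262 genes (95.5%) were, and 93.8% in 3y6. It was 85.0% in 3y2, 80.7% in 3y1, 79.9% in 3y7, 76.0% in 3y3, 69.2% in 3y5 and 61.5% in 5y5, where 32 of 52 genes were. Set against the richer daughters of the 7 other divisions, the own pair had the largest share in 3y2, 3y6 and 5y6. In 5y5 each of the other 7 richer daughters held more of the sister's 52 genes, from 73.1% to 94.2%. In the other direction, between 0.337% (3y5) and 52.4% (3y3) of the richer daughter's genes were open in the sister. Genes open in both daughters had a higher pileup in the richer one, with a median of 3 or 4 in each division against 2 or 3 for genes open there alone. The share of richer daughter genes at the lowest pileup of 2 was 2.41% to 36.7% among genes open in both and 44.6% to 64.3% among genes open in the richer daughter alone.

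Over the 8 divisions, 13399 genes were open in none of the 16 daughters and 12783 in 1 or more. Genes open in the richer daughter but not the sister in 6 or more divisions numbered 1130 of 26182, or 4.32% of all genes, and 38 of them were so in all 8. With a limit of 5 divisions the number was 3080, or 11.8%. In the other direction 17 genes were open in the sister alone in 3 divisions and none in 4 or more. Since each richer daughter was chosen for its longer list, these counts describe the choice and nothing is read from the direction. Among the 1130 genes, 90.5% are protein-coding, against 80.2% of all genes. All 1130 were open in 1 or more of the 8 daughters of the aged unequal divisions, 3a1, 3a3, 3a4 and 3a5, as were 49.1% of all genes. They were open in a median of 5 of those 8 aged daughters and in a median of 5 of the 6 daughters of the near equal young divisions 3y4, 3y8 and 4y1, where the median of all genes was 0. The 1130 were picked as open in 6 or more richer daughters, while all genes include the 13399 open in none. Nothing particular to them is therefore read from these comparisons. Genes open in as many richer daughters whatever the state of the sister were not compared. Without the regions that recur in another division, 21 genes met the limit of 6.

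The 10 genes that head this group, by number of divisions and then by summed pileup, were each open in all 8 richer daughters and in no sister. Anp32b encodes a histone-binding protein of the acidic nuclear phosphoprotein family, and its pileup in the richer daughters was 3 at the lowest, 4 at the median and 7 at the highest. Sestd1, for a protein with a lipid-binding and spectrin-like domain, ran from 3 through 3.5 to 7. Supt20 (a subunit of the SAGA acetyltransferase complex), Sec31a (coat of vesicles that leave the endoplasmic reticulum), Nr3c2 (the mineralocorticoid receptor) and Samm50 (sorting of proteins into the outer mitochondrial membrane) followed. The others were Tbc1d8b, Tnpo3 (nuclear import), Zfp341 (a zinc finger protein) and Ppif (cyclophilin of the mitochondrial matrix). None of the 10 was at a pileup above 7 in any daughter. In the aged unequal divisions Sestd1, Supt20, Tnpo3 and Ppif were open in 7 of 8 daughters and Anp32b in 3.

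A few genes were open in nearly every daughter, shallow sisters included. Genes open in 8 or more of the 16 daughters numbered 3308, or 12.6% of all genes, but 58 were open in exactly 13 daughters, 6 in exactly 14 and 2 in all 16. Those open in all 16 were Gt(ROSA)26Sor, a broadly active long noncoding RNA locus much used as a site for transgenes, and Pgk1, which encodes the glycolytic enzyme phosphoglycerate kinase. Gt(ROSA)26Sor had pileups of 40, 69 and 247 (lowest, median and highest) in the richer daughters and of 13, 24.5 and 118 in the sisters. At Pgk1 the pileups were 16, 24 and 85 in the richer daughters and 4, 11 and 38 in the sisters. Among the richer daughters and among the sisters, both were highest in library set 5. The region at Gt(ROSA)26Sor lay within the gene, with its middle 1011 to 1138 bases from the TSS, and its left end was at base 113075961 of chromosome 6 in 13 of 16 daughters. The region at Pgk1 lay 211 to 350 bases from the TSS, and began at base 106186650 of chromosome X in all 16. Fold enrichment over the local background ran from 11.2 to 40.2 at Gt(ROSA)26Sor and from 4.72 to 36.6 at Pgk1. The Gt(ROSA)26Sor region was among the 5 tallest of its list in 14 of 16 daughters and was the tallest in all 4 of set 5. In the 12 daughters of set 3 the tallest region lay on chromosome 17 within 1565 bases of Rn18s-rs5, a related sequence of 18S ribosomal RNA, with a fold enrichment of 2.78 to 3.61, and this locus is named because of its values. The pileups at these loci are given as called, and from which DNA their insertions came was not tested. A single cell has very few copies of each locus. Pileups as high as 247 and 85 are therefore not read as a degree of opening, and open means here only that a region was called.

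The 6 genes open in 14 daughters were St3gal1 (a sialyltransferase), Slc35e2 (a solute carrier), Pja2 (a ubiquitin ligase), 4930412M03Rik, and Kdm1b (a histone H3K4 demethylase) with Tpmt (thiopurine methyltransferase), the last pair sharing the same regions. Each was open in all 8 richer daughters and in 6 sisters. Pja2 had pileups of 3, 4.5 and 7 in the richer daughters and of 0, 3.5 and 6 in the sisters, where 0 stands for no region at q under 0.05. Next by daughters and summed pileup, at 13, came Rasa1 (a Ras GTPase-activating protein), Fam210b, and Haus8 with Myo9b, whose regions were the same. For each gene of these groups of 14 and 13 daughters named here, the missing daughters were among the sisters of 3y1, 3y5 and 5y5, which had the shortest lists.

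The promoters of genes open in many daughters, of genes open in richer daughters alone and of stem cell genes are set out here as examples of the sequence at the start sites around which promoters were counted. The counts used a wider window, 1 kb to either side of any TSS of the gene. They are RefSeq sequences of build GRCm38.p6, from 250 bases before to 50 after the start, 5′ to 3′ on the gene's strand. Capitals mark matches on either strand to the motif of the CCAAT box, to the GC box motif GGGCGG, to the Ets motif CCGGAAGT, to the cyclic AMP response motif TGACGTCA, to the E-box CACGTG or to the TATA box motif TATAAA, and matches may overlap and run together. Pgk1 lies at chrX:106186850-106187149 on the plus strand, Pja2 at chr17:64331834-64332133 on the minus strand, and Tpmt at chr13:47043168-47043467 on the minus strand.
Pgk1: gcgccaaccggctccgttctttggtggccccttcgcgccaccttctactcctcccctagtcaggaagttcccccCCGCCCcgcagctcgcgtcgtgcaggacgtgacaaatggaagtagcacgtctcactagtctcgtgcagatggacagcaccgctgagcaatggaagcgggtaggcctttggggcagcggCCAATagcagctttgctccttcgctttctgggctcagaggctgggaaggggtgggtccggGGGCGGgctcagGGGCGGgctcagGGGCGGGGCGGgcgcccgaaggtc
Pja2: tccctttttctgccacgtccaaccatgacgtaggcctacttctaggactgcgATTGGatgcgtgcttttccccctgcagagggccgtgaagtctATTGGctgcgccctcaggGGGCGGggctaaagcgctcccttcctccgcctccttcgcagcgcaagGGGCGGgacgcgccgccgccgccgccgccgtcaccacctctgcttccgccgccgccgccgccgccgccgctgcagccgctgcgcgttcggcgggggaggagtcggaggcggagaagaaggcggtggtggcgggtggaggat
Tpmt: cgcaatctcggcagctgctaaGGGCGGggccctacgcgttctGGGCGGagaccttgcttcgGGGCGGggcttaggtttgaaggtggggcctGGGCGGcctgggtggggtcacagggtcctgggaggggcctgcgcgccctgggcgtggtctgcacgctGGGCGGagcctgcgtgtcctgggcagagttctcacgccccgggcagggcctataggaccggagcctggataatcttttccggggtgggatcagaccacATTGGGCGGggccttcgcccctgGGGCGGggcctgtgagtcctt

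The next set belongs to genes open in all 8 richer daughters and no sister. Abce1 is at chr8:79711691-79711990 (minus strand), Sestd1 at chr2:77280543-77280842 (minus strand) and Anp32b at chr4:46450676-46450975 (plus strand), and on these very bases each had a region in 8 richer daughters.
Abce1: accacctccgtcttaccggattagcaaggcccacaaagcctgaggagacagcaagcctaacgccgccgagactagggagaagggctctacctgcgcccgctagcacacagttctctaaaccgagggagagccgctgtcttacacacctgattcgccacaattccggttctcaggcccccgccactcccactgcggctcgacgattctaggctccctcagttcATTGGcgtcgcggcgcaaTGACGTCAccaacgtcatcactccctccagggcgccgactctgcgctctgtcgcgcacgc
Sestd1: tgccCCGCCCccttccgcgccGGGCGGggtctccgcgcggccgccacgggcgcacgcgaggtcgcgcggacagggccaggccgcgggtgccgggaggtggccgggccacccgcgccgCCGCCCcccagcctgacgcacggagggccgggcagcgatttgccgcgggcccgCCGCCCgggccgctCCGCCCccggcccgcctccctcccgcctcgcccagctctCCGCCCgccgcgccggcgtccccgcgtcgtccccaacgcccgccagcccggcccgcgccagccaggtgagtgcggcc
Anp32b: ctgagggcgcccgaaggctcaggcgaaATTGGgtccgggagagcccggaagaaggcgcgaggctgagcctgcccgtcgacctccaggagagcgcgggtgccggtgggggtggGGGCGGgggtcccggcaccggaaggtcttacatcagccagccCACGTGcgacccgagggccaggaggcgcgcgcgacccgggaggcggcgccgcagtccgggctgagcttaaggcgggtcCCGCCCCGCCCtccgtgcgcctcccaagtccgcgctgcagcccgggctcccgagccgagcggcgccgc

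The last set holds a pair of stem cell genes, Hlf at chr11:90390868-90391167 (minus strand), with regions on these bases in 8 daughters, and Kit at chr5:75574737-75575036 (plus strand), with none.
Hlf: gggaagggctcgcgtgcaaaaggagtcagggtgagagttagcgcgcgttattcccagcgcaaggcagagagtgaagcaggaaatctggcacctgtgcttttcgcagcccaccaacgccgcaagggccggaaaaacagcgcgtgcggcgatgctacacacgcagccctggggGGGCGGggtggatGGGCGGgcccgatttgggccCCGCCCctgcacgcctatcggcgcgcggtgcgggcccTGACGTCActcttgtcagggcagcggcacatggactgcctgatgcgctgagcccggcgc
Kit: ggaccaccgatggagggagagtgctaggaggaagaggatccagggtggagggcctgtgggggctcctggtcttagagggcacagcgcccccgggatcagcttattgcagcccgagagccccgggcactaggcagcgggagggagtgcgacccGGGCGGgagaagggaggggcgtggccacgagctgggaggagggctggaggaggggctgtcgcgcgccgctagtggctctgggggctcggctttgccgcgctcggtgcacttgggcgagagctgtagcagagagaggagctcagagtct

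Over all 32817 promoter sequences of 300 bases, composition followed the number of daughters with a region on them. The median GC content was 49.7% for the 23744 promoters with no region in any daughter, 61.3% for those with 1 to 3 daughters, 62.7% for 4 to 7, 64.3% for 8 to 11 and 64.8% for the 150 promoters with 12 to 16. The median number of CG dinucleotides was 5, 20, 23, 24 and 23 in the same order. GGGCGG was found in 35.6% of all promoters, in 23.1% of those with no daughter and in 78.7% of those with 12 to 16. CCAAT was found in 37.4% of all promoters, and in 36.4%, 34.8%, 40.5%, 47.5% and 64.7% along the same order. CCGGAAGT rose from 2.12% to 11.3% between the first and the last class, with 3.89% over all. TATAAA went the other way, from 16.6% to 1.33%, with 13.6% over all. TGACGTCA (1.79% of all promoters) and CACGTG (7.15%) were more frequent in each class with 1 or more daughters than with none, by little for TGACGTCA in the last class, at 1.33% against 1.18%. The 684 promoters with a region in the richer daughter alone in 6 or more divisions had a GC content of 63.7%, GGGCGG in 76.8% and CCAAT in 48.8%, close to the class of 8 to 11 daughters. A match is a run of letters and not a bound site, and the classes are not adjusted for GC content.

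Base composition of the regions themselves followed their height in both kinds of daughter. In the richer daughters regions of pileup 2 had a median GC content of 46.9%, those of pileup 3 had 52.2% and those of 4 or more had 57.1%, against 41.7% for the genome. In the sisters the medians were 47.1%, 54.2% and 55.9%. The median repeat-masked share of bases fell in the same order, from 25.1% through 17.5% to 14.2% in the richer daughters and from 25.2% through 16.1% to 13.5% in the sisters, against 36.4% of the genome. The sisters' medians rest on 3 cells at pileup 2 and 5 cells at pileup 3. Within the 5 sisters with both classes the masked share was higher at pileup 4 or more than at pileup 3 in 3y6, at 16.7% and 15.5%, and in 5y6, at 13.3% and 12.4%. Within pairs the sister's GC content was higher in all 3 at pileup 2 and in all 5 at pileup 3, and lower in 6 of 8 at pileup 4 or more.

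**Figure D3:**
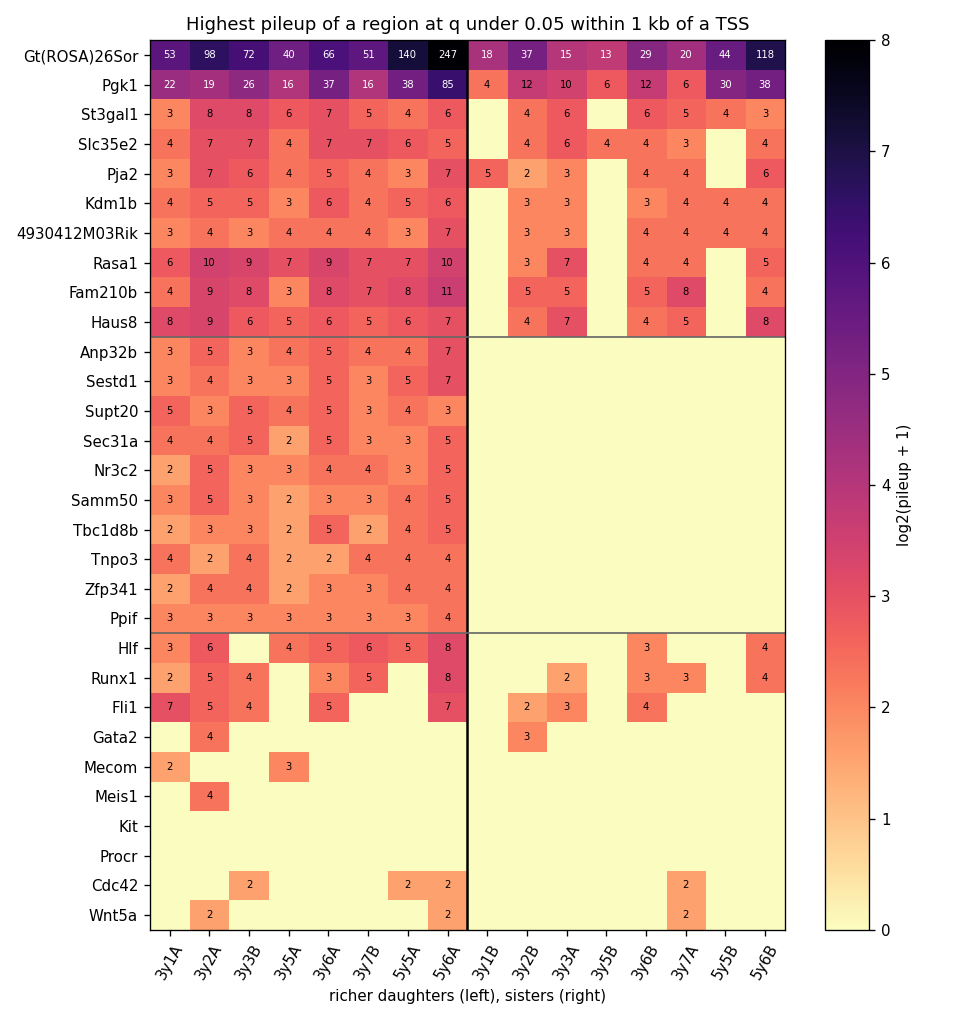
Numbers give, and colours show on the scale log2(pileup + 1), the highest pileup of a region at q under 0.05 within 1 kb of a TSS in each richer daughter (left 8 columns) and sister (right 8 columns), and empty squares hold no such region. The upper block has the 10 entries open in most daughters, the middle block the 10 genes open in all 8 richer daughters and no sister, and the lower block stem cell and polarity genes.

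The stem cell identity of these daughters was looked at through 20 regulators and surface genes of HSCs. Over all genes 25.6% were open in an average richer daughter and 6.98% in an average sister, and over protein-coding genes 28.4% and 7.80%. Of the 20 HSC genes these shares were 26.2% and 8.12%, close to that background. A median of 5 of the 20 was open in a richer daughter (range 3 to 8) and a median of 2 in a sister (range 0 to 4). Their summed pileup was 11, 19.5 and 36 (lowest, median, highest) in the richer daughters and 0, 5 and 11 in the sisters, and the gene with the largest sum was Hlf, at 44. Of the 20 genes, 8 were open in none of the 16 daughters, among them Kit, the SCF receptor, and Ly6a, Procr and Slamf1, which mark HSCs at the surface, with Tal1, Hoxa9 and Myct1. This share of 40.0% compares with 51.2% of all genes and 46.5% of protein-coding genes. Runx1, a master transcription factor of blood, was open in 10 daughters, 6 of them richer. Hlf, a factor of stem cell maintenance, was open in 9, of which 7 were richer, and in the richer daughter alone in 5 divisions. Fli1 was open in 8 daughters, and Gfi1b and Etv6 in 7 each and in the richer daughter alone in 5. Gata2 was open in both daughters of 3y2 and in no other, Mecom in the richer daughters of 3y1 and 3y5, and Meis1 in that of 3y2.

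Lineage markers differed from list to list. The T cell list was open at 31.2% in richer daughters and 7.5% in sisters and the erythroid list at 23.8% and 8.75%, near or above the shares of all genes. The other lists lay below them, with 16.2% and 3.75% for megakaryocyte, 8.75% and 0% for myeloid, 8.75% and 2.50% for B cell and 11.2% and 3.75% for other tissue genes. Of 10 megakaryocyte and platelet genes 6 were open in none of the 16 daughters, and the largest sum of pileup, 35, belonged to the platelet chemokine Pf4, open in 9. Of 10 erythroid genes 6 were open in none, Klf1 and Hba-a1 among them, and the transferrin receptor Tfrc, which dividing cells of many kinds use, led with 61 and was open in 11 daughters. Of 10 myeloid genes 8 were open in none, including Elane, Prtn3 and Csf1r. No myeloid gene was open in a sister, and Cebpe, a factor of granulocyte maturation, was open in 6 richer daughters and summed to 13. In the B cell list 7 of 10 genes were open in none, Pax5 among them, and Ebf1 led with 10. In the T cell list 5 of 10 were open in none, with Cd3e and Lck at 0, and Tcf7, which HSCs also use, was open in 9 and led with 24. Thy1 was open in 5 richer daughters and no sister. Of 20 genes of tissues other than blood, 14 were open in none, Alb, Myod1 and Krt5 among them, and Ins2 led with 12. Cdh1 was open in 5 richer daughters and no sister. Summed pileups per richer daughter had medians of 5.5 for megakaryocyte, 10 for erythroid, 2 for myeloid, 1 for B cell, 9 for T cell and 3 for other tissue genes. In the sisters the medians were 0, 1, 0, 0, 0 and 0. The share of genes open in the richer daughter alone in 5 or more divisions was 10.0% in the megakaryocyte, erythroid and myeloid lists, 0% for B cell, 20% for T cell, 5.00% for other tissues and 15% for HSC genes, beside the 11.8% over all genes. A progenitor or stem cell fate of either daughter cannot be told from these lists.

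The genes of polarity and of small GTPases came next, because the study follows Cdc42 in dividing HSCs. Cdc42 itself was open in 4 daughters, the richer ones of 3y3, 5y5 and 5y6 and the sister of 3y7, at a pileup of 2 each. Of 30 genes in the list, 28 were open in 1 or more daughters, with a median of 5.5 daughters against 0 for all genes and 1 for protein-coding genes. In 9 genes, or 30.0% beside 12.6% of all genes, the number of daughters was 8 or more. Llgl2, a basal polarity protein, was open in 13, with pileups of 3, 4 and 5 in the richer daughters. Numb, a fate determinant that can be shared out unequally in division, was open in 11, as was the Cdc42 effector Iqgap1, which led with a summed pileup of 61. Rac2 and Pak2 were open in 10, and Llgl1, Numbl, Arhgdib and Pak1 in 8. In 10 genes, or 33.3% beside 11.8% of all genes, the richer daughter alone was open in 5 or more divisions, Pak1, Pak2 and Numbl in 6 and Numb, Iqgap1, Llgl1, Rhob, Prkci, Scrib and Cdc42ep1 in 5. Over the list the richer daughters had 52.5% of genes open and the sisters 16.2%. Over all genes these shares were 25.6% and 6.98%. After drawing, described further on, the expected share in the richer daughters was 11.7% for the list and 5.47% for all genes.

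Among 24 genes of Wnt signalling, Wnt5a was open in 3 daughters, the richer ones of 3y2 and 5y6 and the sister of 3y7, at a pileup of 2. The list had a median of 5 daughters, with 5 genes open in none (20.8% beside 51.2% of all genes). In 8 or more daughters 8 genes were open (33.3% beside 12.6% of all genes). Of the cytoplasmic members, Dvl1 was open in 11, Gsk3b in 10 and Axin1 in 8, and of the receptors Fzd7 and Fzd8 in 10, Fzd1 in 9 and Fzd4 in 8. Tcf7l2, a nuclear partner of the pathway, was open in 9 daughters and in the richer one alone in 7 divisions, the most in this list. Gsk3b and Fzd4 were so in 6 and Fzd1 and the ligand Wnt3a in 5, which makes 20.8% beside 11.8% of all genes. The largest summed pileup was 51, at Gsk3b, and the open shares were 45.3% and 14.1%, beside 25.6% and 6.98% of all genes.

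For the acetylation of H4K16 the list had 17 genes, with a median of 5 daughters. In this list 3 genes were open in none (17.6% beside 51.2% of all genes). The acetyltransferase Kat8, which sets this mark, was open in 5 richer daughters and in no sister. Kansl1, of its NSL complex, was open in 11 and led with a summed pileup of 35. Msl2 and Msl1, of its MSL complex, were open in 9 and 8, and Kat5 in 8. Phf20, Hdac2, Kansl1 and Kat8 were open in the richer daughter alone in 5 divisions, or 23.5% of the list beside 11.8% of all genes. The open shares were 46.3% in richer daughters and 14% in sisters, beside 25.6% and 6.98% of all genes.

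The 30 chromatin regulators had a median of 6 daughters, with 3 genes open in none (10.0% beside 51.2% of all genes). In 8 or more daughters 9 were open (30.0% beside 12.6% of all genes). Chd4, Rad21 and Kdm6a were open in 11, Dnmt1 and Rnf2 in 10, Dnmt3b in 9 and Kmt2a, Tet3 and Setd2 in 8. Ep300, a histone acetyltransferase, was open in 7 richer daughters and in no sister, and Dnmt3a, a DNA methyltransferase that restrains HSC self-renewal, in 6 and none. With Rnf2 and Kmt2a at 6 divisions and Suz12, Arid1a, Bptf and Tet3 at 5, 26.7% of the list was open in the richer daughter alone in 5 or more, beside 11.8% of all genes, and Chd4 led with a summed pileup of 53. The open shares were 56.7% and 16.7%, beside 25.6% and 6.98% of all genes.

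The receptors and signalling genes of the culture's cytokines, 22 in all, had a median of 4.5 daughters. Among them 7 genes were open in none (31.8% beside 51.2% of all genes), including the receptor Kit and the kinase Jak2. Stat5a was open in 10, Pik3cd and Shc1 in 9 and Akt1 in 8. In 8 genes, or 36.4% beside 11.8% of all genes, the richer daughter alone was open in 5 or more divisions, among them Stat5a and Akt1 in 6 and Pik3cd, Shc1, Sos1 and Pik3ca in 5. The open shares were 44.9% and 9.66%, beside 25.6% and 6.98% of all genes.

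Of all genes 51.2% were open in none of the 16 daughters and 12.6% in 8 or more, with a median of 0, and the next lists stand beside these values. Of 25 genes of mitosis, 6 were open in none, among them Birc5 and Cdc20, and the median was 5 daughters. Ccna2 and Cdc25b were open in 11, Pttg1 in 10, Kif11 in 9 and Plk1, Aurka and Ttk in 8. The richer daughter alone was open in 6 divisions at Pttg1 and Ttk and in 5 at Ccna2, Cdc25b, Cdk1 and Anapc1, or 24.0% of the list, and Cdc25b led with 46. Of 20 glycolysis genes 3 were open in none and 6 in 8 or more, with Pgk1 in 16, Pdk1 in 12, Slc2a1 in 11, Aldoa in 10, Eno1 in 9 and Pfkm in 8. The median was 6.5, the share open in the richer daughter alone in 5 or more divisions was 25.0% (Pfkm and Ldha in 6 and Slc2a1, Eno1 and Ldhb in 5), and Pgk1 alone gave 377 of a summed pileup of 729. Of 22 interferon genes 11 were open in none and 6 in 8 or more, among them Ptpn2 in 12, Ifnar1 and Ifngr1 in 11, Tyk2 in 9 and Socs1 in 8. The median was 1.5 and the share 13.6% (Ifnar1 and Ifngr1 among them), and Ifnar1 led with 56. Of 30 cytosolic ribosomal protein genes 4 were open in none and 4 in 8 or more, among them Rpl37 in 13, Rps3 in 9 and Rpl8 in 8. The median was 4.5 and the share 20% (Rps3, Rpl5, Rpl7a, Rpl27, Rplp1 and Rps2), and Rpl37 led with 67. The open shares in richer daughters and sisters were 45.5% and 13.5% for mitosis, 54.4% and 18.8% for glycolysis, 34.7% and 12.5% for interferon and 44.2% and 12.1% for ribosomal genes, beside 25.6% and 6.98% of all genes. The interferon list lay at the share of protein-coding genes, 13.2%, and the other lists from polarity to ribosomal proteins lay above it, with no test made.

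Drawing as many regions at random from the richer list as its sister has removes the difference in list length. The value used is the exact mean over all such draws. After drawing, the richer list had fewer open genes than the sister in all 8 divisions, with a log2 ratio of -1.01 ± 0.72 (SD, n = 8). The values were -0.10 in 3y3, -0.15 in 3y2, -0.39 in 3y7, -1.0 in 3y5, -1.32 in 5y5, -1.46 in 3y1, -1.66 in 3y6 and -1.97 in 5y6. In 5y6 the 2423 regions of the sister reached 1262 genes, and an average draw of the same number from 79674 reached 322.4. The 3 divisions whose sister also passed at pileup 2 lay closest to 0. Without recurring regions the mean was -0.50, with 7 divisions below 0 and 1 above.

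The direction changed with the way the lists were matched. When the richer list was shortened to its regions of highest q rank, the mean was 0.28 ± 0.33 (SD, n = 8), above 0 in 7 divisions and at -0.02 in 3y3. With the same minimum pileup in both daughters before the draw, the mean was 0.01 ± 0.38, with 0.24, 0.68 and 0.34 in 3y1, 3y5 and 5y5 and values from -0.39 to -0.10 in the other 5. Thinning instead kept each insertion in the richer daughter's listed regions with the chance that gives the sister's summed pileup. Regions of pileup 3 or more were then counted in both, and the mean was -0.81 ± 0.25, with all 8 below 0. Regions were not called anew after thinning, while the sister's pileups are those called in its own data. The thinned values are thus not a full match of depth. So the richer daughter's regions of highest q rank lay at more genes than the sister's regions in 7 divisions and at fewer in 3y3. An average sample of its regions lay at fewer in all 8. The same-pileup values depended on the division, and the plot of matched ratios shows all of them.

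**Figure D4:**
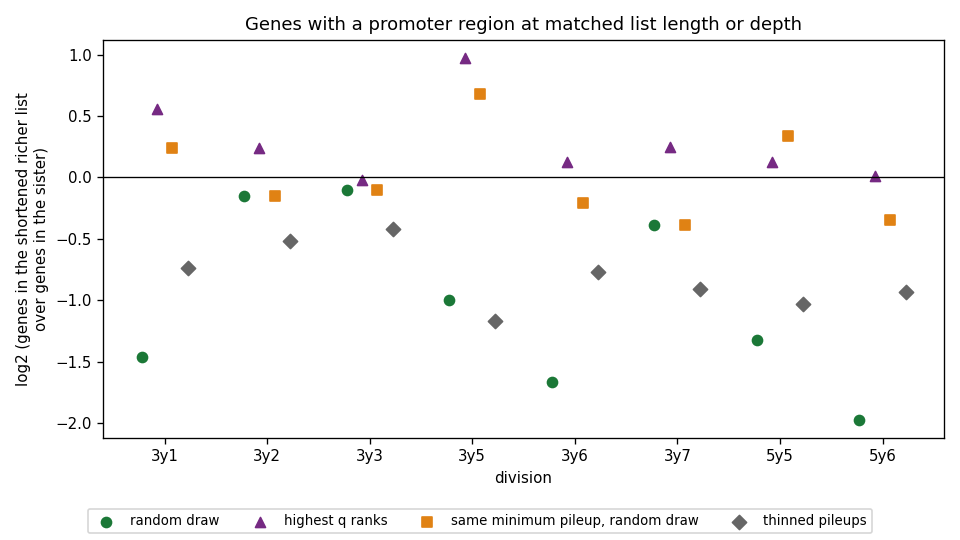
The vertical axis is the log2 ratio of open genes in the shortened richer list over the sister's, for each division, under a random draw, the highest q ranks, a random draw at the same minimum pileup and thinned pileups. Random draws run from -1.97 to -0.10, and the highest ranks from -0.02 to 0.97.

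Gene by gene, the difference after drawing is the mean over divisions of the chance that the gene is open in the drawn richer list, minus its state in the sister. A region of the richer list is drawn more often where the sister's list is closer to it in length. The sister had 34298 regions against 55045 in 3y3, but 74 against 32105 in 3y5. The expected shares therefore come mostly from 3y2, 3y3 and 3y7. A gene with 1 region in each of the 8 richer daughters had an expected share of 0.184, so that Pgk1 and Gt(ROSA)26Sor, open in every sister, had the lowest difference, -0.816. Next came Rtraf, a factor of tRNA ligation and RNA transport, at -0.567, then the 6 genes open in 14 daughters, from St3gal1 to Tpmt, at -0.566, and Josd1 and Alkbh6 at -0.524. At the other end the difference was 0.282 at Abce1 (ribosome recycling) with Anapc10 (the anaphase-promoting complex), which share their regions, and 0.280 at Kat14 with Pet117. Then followed Dcaf17 with Mettl8 at 0.252, Slc38a9 (an amino acid sensor of lysosomes) at 0.251, Rbms1 at 0.25, Apbb2, Rnf157 and Rnf146 at 0.248, and Zzz3 and Emc10 with Fam71e1 at 0.247. All of these had no region in any sister. Their shares above 0.184 need more than 1 region within 1 kb of a TSS in some richer daughter. With the highest q ranks instead of the draw, the difference was 0 at Abce1, Kat14 and Rnf146 and above 0 at the other genes named at this end. It was also 0 at Pgk1 and Gt(ROSA)26Sor, and below 0 at the other genes named at the low end. With a limit of 0.25, which is the weight of 2 divisions, 678 genes (2.59% of 26182) were higher in the sister and 8 (0.0306%) in the richer daughter. The measure itself makes these numbers unequal. A gene with 1 region in each richer daughter and none in a sister reaches 0.184 and stays under the limit. Such a gene that is open in every sister instead reaches -0.816. With the highest q ranks the numbers of genes were 1003 and 1499. Cdc42 stood at -0.00966, Wnt5a at -0.0688, Kit and Procr at 0, Gata2 at -0.0726, Runx1 at -0.249, Hlf at -0.143, Meis1 at 0.0524 and Mecom at 0.00073.

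The share of regions near a TSS was lower in the richer daughter in all 8 divisions. It was 10.0% to 16.9% in the richer daughters with a median of 11.5%, and 11.5% to 43.8% in the sisters with a median of 31.9%. The difference, richer minus sister, was -15.5 ± 12.3 percentage points (SD, n = 8), from -0.810 in 3y3 to -32.3 in 5y6. Where the sister passed at pileup 2 the shares were 10.4% and 11.5% (3y2), 11.4% and 12.2% (3y3) and 10.0% and 13.1% (3y7). Where it passed at pileup 3 they were 10.6% and 32.8% (3y6) and 11.6% and 43.8% (5y6), and at pileup 4 they were 13.6% and 38.0% (3y1), 15.1% and 31.1% (3y5) and 16.9% and 41.3% (5y5). With the same minimum pileup in both the mean difference was 1.75 ± 8.28 points. It was positive in 3y1, 3y5 and 5y5, at 4.72, 15.6 and 11.5, and negative in the other 5. With the highest q ranks it was 6.68 points, with thinned pileups 3.15 (above 0 in 5 divisions and below in 3), at q under 0.01 -4.11, with every listed region -3.70, and without recurring regions -13.6. The sign of the difference thus depended on how the lists were matched. Outside the TSS windows, medians of 3.88%, 37.2% and 47.3% of all regions of the richer daughters had their middle in an exon, in an intron and between genes, and in the sisters these were 3.42%, 32.7% and 33.4%.

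**Figure D5:**
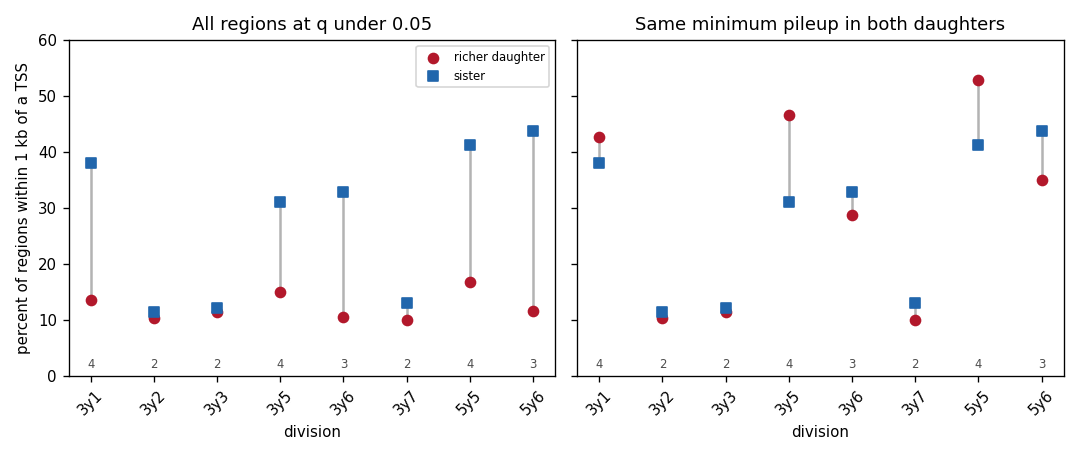
Points give the percent of regions within 1 kb of a TSS in the richer daughter (circles) and its sister (squares), for all regions at q under 0.05 (left) and for regions at or above the same minimum pileup (right), which is printed above the horizontal axis of both panels. On the left the sister is higher in all 8 divisions, and on the right in 5 of 8.

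The positions shared by daughters of the same mother cell were compared next. The study scored pairs by their overlap as well as by their region ratio, so this measure is not independent of the choice of divisions and is given as a description, with no p. The question was whether a sister's regions overlap those of its own richer daughter more than those of other divisions. All richer lists were brought to the length of the shortest, 21193, by the exact mean over draws, and regions counted as shared with 1 base in common. The own richer daughter covered 33.3% ± 13.9 (SD, n = 8) of the sister's regions, and the richer daughters of other divisions of the same library set covered 26.2% ± 12.7. The difference of 7.08 ± 20.7 points was smaller than its spread. It was 2.89 points without 5y5 and 12.9 without 5y6. Against all other young unequal divisions it was 11.4, and with the same start and end 3.31. The own pair was higher in 6 of 8 divisions, and lower in 3y2 (-1.10) and 5y6 (-33.7). In 5y6 the own richer daughter covered 23.4% and that of 5y5, the only other division of set 5, covered 57.1%. In 5y5 the values were 58.7% and 22.3%. The richer list of 5y5 is the shortest and was kept whole, and it covered most of either sister's regions, whereas that of 5y6 was drawn from 79674 regions. The difference also moved with list length in set 3, where the shortest richer lists, those of 3y5 and 3y1, gave 24.6 and 15.5 points and the longest, that of 3y2, gave -1.10. The divisions with the largest differences, 5y5, 3y5 and 3y1, also had the shortest sister lists, of 104, 74 and 129 regions. The parts of common descent and of the length of either list in this difference were not tested. Because the richer lists serve in several comparisons and positions recur across divisions, the 8 values are not independent. Within the groups of successive numbers of set 3 the difference was 2.60 points (n = 6).

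Last, the 8 young divisions were set beside the 4 aged divisions that the study scored as unequal, 3a1, 3a3, 3a4 and 3a5, all of library set 3. The question was whether the difference between unequal daughters changes with age. Divisions of both ages were chosen by region numbers of the same lists that give the values compared, so these values too are a description, with no p. The log2 ratio of open genes after drawing was -1.01 ± 0.72 (SD, n = 8) in the young and -0.63 ± 0.60 (n = 4) in the aged divisions. The difference of -0.37 was within the spread. The difference in TSS share between daughters was -15.5 ± 12.3 points (n = 8) in the young and -9.28 ± 13.1 (n = 4) in the aged, a difference of -6.24 points, also within the spread. Within set 3, with 6 young and 4 aged divisions, the differences were -0.16 and -1.97 points. Aged division 3a3 stood apart from the other 3, at -1.54 and -28.9 points. Without it the age differences were -0.68 and -12.8 points. It is also the 1 aged division of the 4 whose sister passed at pileup 3 rather than 2. With the same minimum pileup in both daughters 3a3 stood at 0.09 and 2.31 points. The other 3 aged divisions then stood at -0.35 to -0.31 and -2.77 to -2.69 points. Without recurring regions the age differences were -0.14 and -4.98 points. Under other alternatives the sign turned. The difference after drawing became 0.03 with thinned pileups, 0.22 at q under 0.01 and 0.23 with the same minimum pileup. In TSS share it became 5.37 points at q under 0.01 and 3.23 with the same minimum pileup. With the highest q ranks and thinned pileups it was 1.35 and 6.59 points. Positions recur in the aged divisions too, so these divisions are not independent.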

How the data were processed

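Chromatin accessibility was measured by ATAC-seq in single daughter cells, and each daughter has its own list of regions. According to the records the authors trimmed reads with cutadapt 1.9.1, aligned them to mm10 with Bowtie2 and called regions with MACS2 in each cell by itself (versions of the last pair not stated). Per the file headers, the deposited pileup is a signal, the number of extended insertions at the summit with no scaling to depth. Per the file headers, the deposited -log10(p) and -log10(q) values come from MACS2's test against the local background of the same cell. Per the file headers, the deposited fold enrichment is the ratio of pileup to that background.

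Regions at q under 0.05 were assigned to 26182 genes by 45755 known RefSeq transcripts of GRCm38.p6 within 1 kb of a TSS. Python 3.11.15, NumPy 2.4.6, pandas 2.3.3, SciPy 1.17.1 and Matplotlib 3.10.9 were used, and the steps were tested on simulated data. Expected values over all draws replaced random numbers. Contrasts of richer daughter and sister carry no test, because the divisions were chosen by region counts. The 3 planned tests, of sister overlap and of young against aged divisions, were two-sided exact permutation tests over divisions, adjusted together by Benjamini-Hochberg. None passed the threshold of 0.05, but nothing is read from this, and their p values are not given. The values tested are not independent of how divisions were chosen.

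Genes are named by rules: the 10 with the most divisions open in the richer daughter alone, the 10 highest and the 10 lowest differences after drawing, the 10 open in most daughters, the genes of each list open in 8 or more daughters or in the richer daughter alone in 5 or more divisions, and Cdc42, Wnt5a and a few stem cell genes. The lists hold genes of HSCs, megakaryocytes, erythroid, myeloid, B and T cells, other tissues, polarity, Wnt signalling, H4K16 acetylation, chromatin, cytokine signalling, mitosis, glycolysis, interferon and ribosomal proteins. A few genes of these lists and a culture component are not reported here. Divisions and lists were chosen with earlier results of these data known. Alternatives changed the q threshold, the distance from a TSS, the genes, the matching of list lengths and the divisions compared. The same minimum pileup, regions in no other division, autosomes, blocks of pair numbers, identical boundaries, every listed region for overlap and TSS share, thinned pileups for open genes before drawing and TSS share, and the highest q ranks for TSS share between ages were chosen after seeing the data.

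These lists limit what can be said. Positions recur between divisions to the base, so divisions are not independent. Read numbers, which the study gives per cell, were not used here, and depth was followed through pileup. In each division the richer daughter had the larger summed pileup, and in 3y1, 3y5, 3y6, 5y5 and 5y6 also the lower passing pileup. In 3y2, 3y3 and 3y7 both daughters passed at pileup 2. The parts of depth, of the passing pileup and of the choice were not tested apart from the matched values. The donor of each division is not named, and the 4 aged unequal divisions all come from library set 3. A region within 1 kb of a TSS does not measure transcription, and a gene without a region in a shallow list was not detected at this depth.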

Additional observations from a re-analysis of the deposited data

Results flagged for a closer look

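Among the 4 aged unequal divisions, 3a3 lay apart from the other 3 in both measures compared with the young divisions. Its log2 ratio of open genes after drawing was -1.54, and its richer daughter's share of regions near a TSS was lower than its sister's, with a difference of -28.9 percentage points. In 7 groups looked at, 2 results lay this far outside. The rule used would flag about 1 of 20 groups by chance, but these divisions were chosen by the same region lists. Nothing is therefore read from that rate. Both results come from the same division and are not independent. In 3a3 the sister passed at pileup 3, and in the other 3 divisions at 2. With the same minimum pileup in both daughters 3a3 was at 0.09 and 2.31 points. The other 3 were then at -0.35 to -0.31 and -2.77 to -2.69 points.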

How the results depend on the processing

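The ratio of open genes before drawing, whose direction the choice of the richer daughter fixes, fell from 3.62 to 0.90 with every listed region. The overlap of sisters stayed above 0 under all 14 alternatives, but its 7.08 points became 11.4 against all other young unequal divisions, 3.31 with the same start and end and 2.60 within blocks of pair numbers. After drawing, the mean log2 ratio of -1.01 became -0.15 at q under 0.01, 0.28 with the highest q ranks and 0.01 with the same minimum pileup in both daughters. The other 15 alternatives kept it negative. The difference in TSS share of -15.5 points became 6.68 with the highest q ranks, 3.15 with thinned pileups and 1.75 with the same minimum pileup. It kept its sign under the other 12, at -4.11 at q under 0.01 and -3.70 with every listed region. The same minimum pileup leaves out no region in 3y2, 3y3 and 3y7, where it is 2. The cause of these changes was not tested.

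Genes open in the richer daughter alone in 6 or more divisions numbered 1130, and 162 at q under 0.01, 580 with every listed region, 97 with the same minimum pileup and 21 with regions in no other division. Genes higher in the sister after drawing numbered 678, and 90 at q under 0.01. Those higher in the richer daughter numbered 8, and 1499 with the highest q ranks, 0 at q under 0.01, 15 within 2000 bp and 31 with the same minimum pileup. A stricter threshold leaves fewer regions to count, and the cause of the other changes was not tested.

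The young minus aged difference of -0.37 after drawing became -0.02 with the highest q ranks, 0.03 with thinned pileups, 0.22 at q under 0.01 and 0.23 with the same minimum pileup, and that of -6.24 points became 5.37 at q under 0.01, 3.23 with the same minimum pileup, 1.35 with the highest q ranks and 6.59 with thinned pileups. The cause was not tested.

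Leaving out each division in turn gave 3.04 to 4.06 before drawing, -1.14 to -0.87 after it and -17.6 to -13.1 points for TSS share. The sister overlap ran from 2.89 points without 5y5, next to 4.58 without 3y5, to 12.9 without 5y6. The young minus aged differences ran from -0.68 without 3a3 to -0.24 without 5y6, and from -12.8 points without 3a3 to -3.85 without 5y6, with -4.05 without 3a1 and -4.07 without 3a4 or 3a5. Depth, and in some pairs the lowest pileup that passes, differ between the lists compared. Their part in these results was not tested apart from the matched values given above. The same minimum pileup, the regions in no other division and, for TSS share, the thinned pileups were chosen after seeing the data.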
